A study of Mus musculus with 10 samples.

Results

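The genes of 9 receptor chains and ligands that hold blood stem cells in the bone marrow or bring them back to it were followed in sorted stem and progenitor cells of mice. They were the chemokine receptor gene Cxcr4, the integrin subunit genes Itga4, Itga5, Itga6, Itgb1, Itgal and Itgb2, the hyaluronan receptor gene Cd44 and the selectin ligand gene Selplg. The genes were taken by symbol from the deposited table of raw read counts, in which all 9 were found among 25078 genes. Each of the 9 passed the filter of at least 1 count in any library, as did 18747 genes in all, and the rule used no measured value.

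The cells were LSK cells (negative for lineage markers, positive for Sca-1 and c-Kit) sorted from marrow, with each library made from 1 mouse (5 CM and 5 CM/miR-126Δ/Δ). CM stands for Cbfb-MYH11, the fusion gene made by inversion of chromosome 16 in human acute myeloid leukemia. CM mice carried 1 conditional knock-in allele and an inducible Cre (Cbfb56M/+, Mx1-Cre), and CM/miR-126Δ/Δ mice carried in addition 2 floxed copies of miR-126 (Cbfb56M/+, miR-126flox/flox, Mx1-Cre), all on a C57BL/6 background after more than 10 generations of backcrossing. Both genotypes received 7 doses of poly(I:C) at 14 mg/kg from 6 to 8 weeks of age, and cells were taken 6 weeks after induction, before leukemia. Both groups therefore shared the fusion gene, the Cre and the poly(I:C), and the comparison is of miR-126 deletion within CM mice and says nothing of CM against normal cells. Mx1-Cre is driven by an interferon-inducible promoter and is active in many cell types of the mouse, so the deletion was not limited to LSK cells. Mice are numbered 1 to 5 within each genotype, as in the labels, and CM/miR-126Δ/Δ mice are also called the deleted mice.

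Hematopoietic stem cells stay in the marrow by several contacts at once. Cxcr4 reads a gradient of Cxcl12 made by stromal cells. Integrins are heterodimers of an alpha and a beta chain, in which the alpha4, alpha5 and alpha6 chains pair with beta1 and bind Vcam1, fibronectin and laminins, while the alphaL chain pairs with beta2 and binds Icam proteins. Cd44 binds hyaluronan, and the product of Selplg, known as PSGL-1, carries cells along P- and E-selectin on marrow endothelium.

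The deleted microRNA is shown first, because the genotypes differ by it. Its mature 3′ arm, from RefSeq (GRCm38.p6, chr2:26591402-26591423, plus strand, within the gene Egfl7), is written here with its seed, bases 2 to 8, in capitals.
mmu-miR-126a-3p: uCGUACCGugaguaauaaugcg
A full match to this seed in a target reads CGGTACG, and the shorter match to bases 2 to 7 reads GGTACG, which lies within the longer one. Neither was present, on the sense strand, in the longest annotated 3′ untranslated region of any of the 9 genes, from 446 bases in Itgb2 and 644 bases in Cxcr4 to 6508 bases in Itga4. Among 9559 genes with a mean of at least 1 RPKM (reads per kilobase of exon and per 1000000 counted reads) and an annotated 3′ untranslated region, 3.58% held the shorter match and 0.262% the full one. The search covers these letters in these transcripts only, and sites outside them or with other pairing were not sought.

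The precursor loci were close to the limit of these libraries. Mir126a reads numbered 4, 5, 0, 2 and 3 in CM mice 1 to 5, none of the deleted mice had any, and Mir126b had at most 1 count in CM mice and 0 in the other genotype. CM mouse 3, at 0, could not be told from the deleted mice by this measure, and the mature microRNA was not measured. Libraries held 23649233 to 33202086 counted reads. The smallest level taken as detectable, 3 counts, came to 0.0904 to 0.127 per 1000000 counted reads, before scaling. CPM values are counts per 1000000, scaled by TMM factors of 0.922 to 1.05. The 9 genes had 1284 to 19022 counts in every library, far above that limit. Rn45s, a ribosomal precursor that escaped depletion, took 14.8% to 22.6% of counts, with the highest share and the lowest TMM factor in CM/miR-126Δ/Δ mouse 3. All 10 markers of LSK cells were expressed, Kit at 702 to 1001 CPM and Ly6a, which encodes Sca-1, at 43.6 to 70.3 CPM. Markers of mature cells ranged from absent to well detected. The globin genes Hbb-bt, Hbb-bs and Hba-a1 were under 3 counts in each mouse, and Ms4a1 of B cells and Ly6g of neutrophils were at 0 to 1.34 CPM, whereas Cd79b of B cells was at 20.3 to 27.6 CPM, S100a9 of neutrophils at 0.566 to 109 CPM and F13a1 of monocytes at 175 to 504 CPM. In bulk RNA, fewer cells of a type and less RNA per cell cannot be told apart.

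Between the genotypes, none of the 9 genes was called. Of these, 8 were lower on average in CM/miR-126Δ/Δ mice and Itga6 was higher, but the fold differences ran only from 0.901 for Selplg to 1.12 for Itga6, and the values of the genotypes overlapped for every gene. A gene was called by the study's cutoffs, an unadjusted p of at most 0.01, a fold of at least 1.5 and a mean of at least 1 RPKM in a genotype, in edgeR's quasi-likelihood test, which compares the difference with the spread between mice. By these cutoffs 0.288% of all 18747 genes were called (0.192% higher and 0.096% lower in CM/miR-126Δ/Δ mice) and 0 of the 9. The study itself reported a larger number of genes for this comparison, and the reason for the difference was not tested. At a p of at most 0.01 alone 1.48% of all genes passed (0.8% higher and 0.677% lower) and 0 of the 9. With the Benjamini-Hochberg adjustment over all genes, 0.0107% of genes (2) passed an adjusted p of 0.05 in edgeR and again 0 of the 9, and 0 of the 9 had an unadjusted p under 0.05. DESeq2 at an adjusted p of 0.05 called 45 genes, or 0.24%, and 0 of the 9. Groups that did not overlap were found for 1.33% of the 11532 genes with a mean of at least 1 RPKM and for 0 of the 9. The median log2 fold change (CM/miR-126Δ/Δ minus CM) was -0.07 over the 9 genes and -0.02 over the 11532, of which 57.8% were lower in CM/miR-126Δ/Δ mice.

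**Figure D1:**
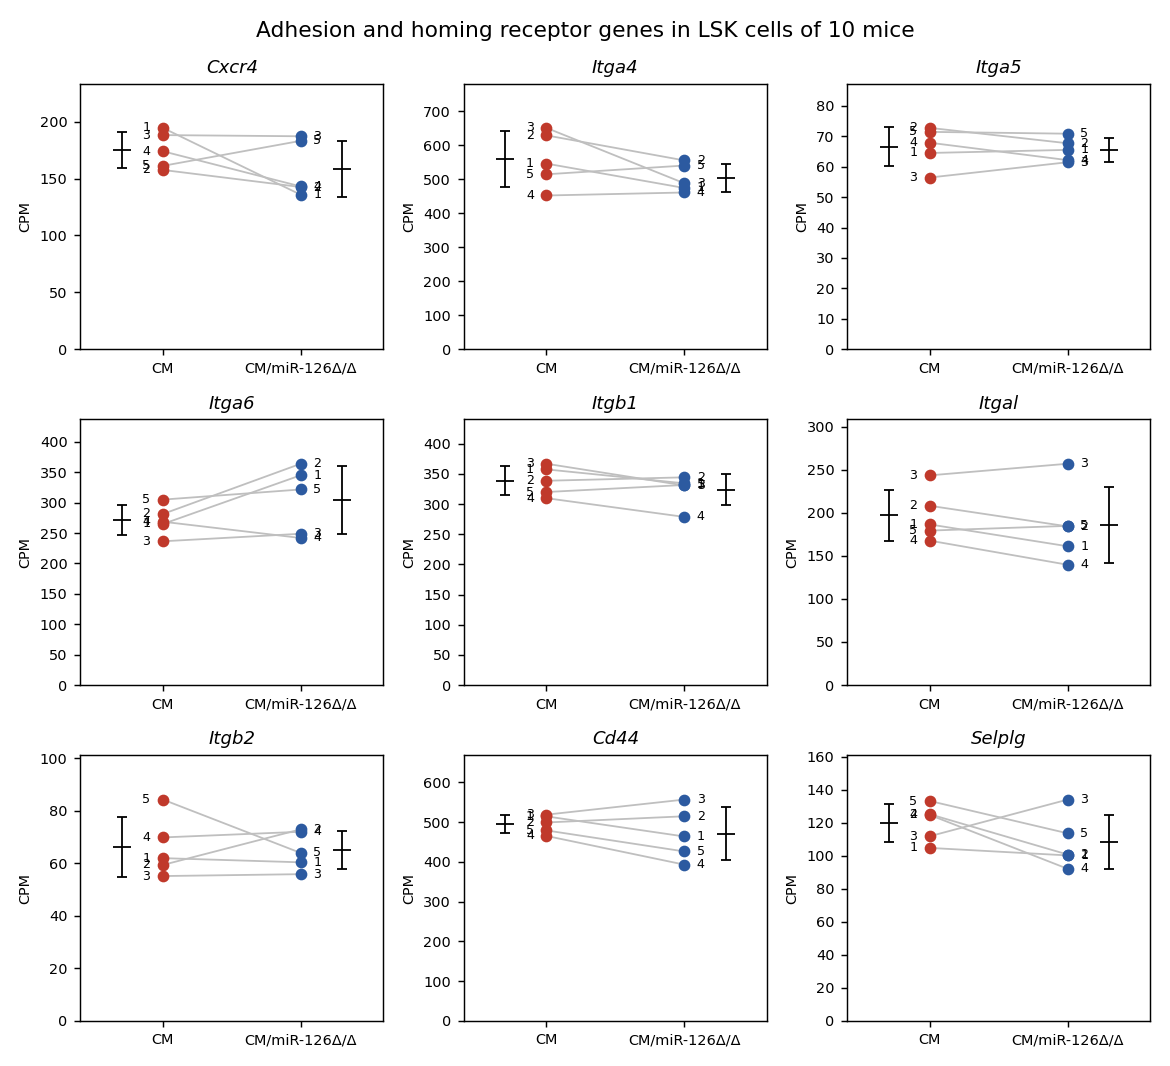
CPM of each of the 9 genes (vertical axes, from 0) in CM mice (red) and CM/miR-126Δ/Δ mice (blue), 1 point per mouse with its number, with grey lines between mice of the same number and black bars for the mean and SD of 5 mice. The genotypes overlap in all 9 panels, and mouse 3 has the highest Itgal in both (244 and 257 CPM).

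Cxcr4 (chr1:128588199-128592299, minus strand, mm10), the receptor for the retention signal Cxcl12, was at 195, 158, 188, 174 and 161 CPM in CM mice 1 to 5. In CM/miR-126Δ/Δ mice 1 to 5 it was at 136, 143, 187, 143 and 183 CPM. Deleted mice 1, 2 and 4 lay below every CM mouse and mice 3 and 5 within the CM range. The means were 175 ± 16.2 and 158 ± 24.7 CPM (SD, n = 5 each), which corresponds to -0.15 as log2 fold change (SE 0.0982, edgeR adjusted p = 0.765), or a fold of 0.904 with a 95% interval of 0.781 to 1.05. An exact permutation test over all splits of the mice into 5 and 5 gave p = 0.206 (two-sided, n = 5 each). Stromal cells make the ligand, and in these sorted cells Cxcl12 itself was at 1.16 to 5.33 CPM.

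Itga4 (chr2:79255426-79333114, plus strand), which encodes the alpha4 chain of the Vcam1 receptor VLA-4, had the most reads of the 9 genes. CM mice 1 to 5 were at 546, 629, 651, 452 and 514 CPM, and CM/miR-126Δ/Δ mice at 474, 555, 488, 461 and 539.9 CPM. CM mice 2 and 3 stood above all of the deleted mice, whereas CM mouse 4 was the lowest of the 10. The means of 558 ± 82.0 and 503 ± 41.6 CPM gave a log2 fold change of -0.15 (SE 0.102, edgeR adjusted p = 0.765) and a fold of 0.902 (95% interval 0.776 to 1.05). Cerkl overlaps Itga4 on the opposite strand and had at most 178 counts in a library, so that shared reads, if the counting ignored strand, would be a small part of the 11205 or more counts of Itga4.

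Itga5 (chr15:103344286-103366791, minus strand), the alpha5 chain of the fibronectin receptor, was the gene with the narrowest interval. It was at 64.5, 72.8, 56.4, 67.9 and 71.4 CPM in CM mice and at 65.5, 67.7, 61.5, 62.2 and 70.9 CPM in CM/miR-126Δ/Δ mice. All 5 deleted mice lay inside the CM range. The log2 fold change was -0.02 (SE 0.0707, edgeR adjusted p = 0.959), a fold of 0.984 (95% interval 0.886 to 1.09).

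Itga6 (chr2:71786939-71858427, plus strand), the alpha6 chain of laminin receptors, was the only 1 of the 9 genes with a higher mean in CM/miR-126Δ/Δ mice. CM mice were at 265, 281, 236, 269 and 305 CPM, and CM/miR-126Δ/Δ mice at 345, 364, 249, 242 and 322 CPM. Deleted mice 1, 2 and 5 exceeded all CM mice, and deleted mice 3 and 4 were below 4 of the CM mice. In 4 of the 5 same-numbered pairs the deleted mouse was higher. The means of 271 ± 25.0 and 304 ± 55.9 CPM corresponded to a log2 fold change of 0.17 (SE 0.113, edgeR adjusted p = 0.765; exact permutation p = 0.294, n = 5 each), with a fold of 1.12 and the second widest interval of the 9, 0.948 to 1.33.

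Itgb1 (chr8:128685654-128733579, plus strand) encodes the beta1 chain shared by the 3 alpha chains above, and it varied least between mice, with a coefficient of variation of 7.49% over all 10. It was at 357, 339, 367, 309.7 and 319.9 CPM in CM mice and at 334, 344, 331, 279 and 332 CPM in CM/miR-126Δ/Δ mice. Deleted mouse 4 lay below the CM range and the other 4 within it. The log2 fold change was -0.06 (SE 0.0738, edgeR adjusted p = 0.846), a fold of 0.957 (95% interval 0.858 to 1.07).

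Itgal (chr7:127296260-127335137, plus strand), the alphaL chain of LFA-1, varied most, with a coefficient of variation of 18.9% and a highest value 1.84 times the lowest. CM mice 1 to 5 were at 186.5, 208, 244, 168 and 179 CPM, and CM/miR-126Δ/Δ mice at 161, 184, 257, 139.7 and 185 CPM. The highest value of both genotypes was in mouse 3 and the lowest in mouse 4. The log2 fold change was -0.09 (SE 0.140, edgeR adjusted p = 0.899), and the interval of the fold was the widest of the 9, 0.764 to 1.16. The summed level of 8 monocyte and macrophage markers, all of them expressed, was also highest in mouse 3 of both genotypes, at 727 CPM (range 416 to 727 in CM mice) and 782 CPM (320 to 782 in CM/miR-126Δ/Δ mice). F13a1 was the largest part of this sum (244 to 378 and 175 to 504 CPM), so the sum says little of the markers at lower levels. Vcam1, of the same list, was highest in mouse 4 of both genotypes (67.6 and 38.6 CPM), against 50.3 and 23.3 CPM in mouse 3. The part of these markers in the Itgal values was not tested.

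Itgb2 (chr10:77530370-77565708, plus strand), the beta2 chain of leukocyte integrins, was at 62.0, 59.4, 55.2, 69.9 and 84.3 CPM in CM mice. In CM/miR-126Δ/Δ mice it was at 60.4, 73.0, 55.9, 72.1 and 64.0 CPM, all inside the CM range. The means were 66.2 ± 11.5 and 65.1 ± 7.39 CPM (log2 fold change -0.02, SE 0.108, edgeR adjusted p = 0.977; fold 0.983, 95% interval 0.838 to 1.15). CM mouse 5, the highest for Itgb2, also had the highest summed level of 8 neutrophil markers among CM mice, 172 CPM against 3.85 to 37.7 CPM in the others. Among CM/miR-126Δ/Δ mice the highest sum was in mouse 4, 374 CPM against 4.22 to 25.9 CPM, where Itgb2 was the second highest. Of these markers 7 of 8 had a mean of at least 1 RPKM and Ly6g, which defines mature neutrophils, did not, and their part in the Itgb2 values was not tested.

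Cd44 (chr2:102811142-102901665, minus strand) was at 515, 499, 519, 465 and 479 CPM in CM mice and spread more widely in CM/miR-126Δ/Δ mice, at 464, 515, 557, 393 and 426 CPM. Deleted mouse 3 was above all CM mice and deleted mice 1, 4 and 5 were below them. The means of 495 ± 22.9 and 471 ± 66.0 CPM differed by a log2 fold change of -0.07 (SE 0.0920, edgeR adjusted p = 0.862; fold 0.951, 95% interval 0.829 to 1.09). Without deleted mouse 4 the log2 fold change of Cd44 was -0.0010, and without deleted mouse 3 it was -0.14.

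Selplg (chr5:113817798-113830501, minus strand), whose product PSGL-1 binds selectins, had the smallest p of the 9 genes. It was at 105, 125, 112, 125 and 133 CPM in CM mice and at 100.2, 101, 134, 92.0 and 114 CPM in CM/miR-126Δ/Δ mice. Deleted mice 1, 2 and 4 were below every CM mouse, while deleted mouse 3 was the highest of the 10. The log2 fold change was -0.15 (SE 0.0955, unadjusted p = 0.139, edgeR adjusted p = 0.765; fold 0.901, 95% interval 0.782 to 1.04). Without CM/miR-126Δ/Δ mouse 3, the library with the highest Rn45s share, the log2 fold change was -0.24 with an unadjusted p of 0.00995 and an edgeR adjusted p of 0.606.

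**Figure D2:**
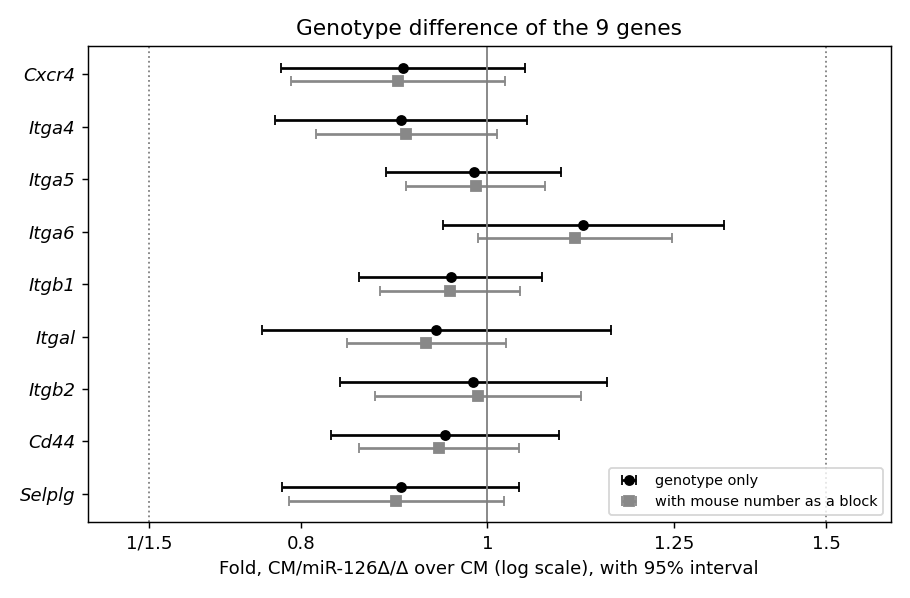
Fold difference of each gene between CM/miR-126Δ/Δ and CM mice (horizontal log axis) with its 95% interval, from genotype alone (black circles) and with the mouse number as a block (grey squares); dotted lines stand at a fold of 1.5 in either direction. Every interval contains 1 and lies inside the dotted lines, from 0.764 for Itgal to 1.33 for Itga6.

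The 9 intervals all lay within a 1.5-fold change in either direction, the size of change that the study's cutoffs ask for. Same-numbered mice of the genotypes deviated together, and fitting the number as a block shortened the intervals without a call, with adjusted p-values from edgeR of at least 0.619 for the 9 genes. The mouse number accounted for a median of 63.0% of the variance of log2 CPM over the 9 genes and genotype for 9.27%, against 55.9% and 8.75% for the 4489 genes in the same RPKM range. The number has more levels than genotype, and more levels by themselves already give a larger share. Each share is therefore to be read against the genes of like level, and not against the other share. For Itgal the number took 87.9% and genotype 4.45%, and for Cxcr4 the values were 37.9% and 18.2%. The coefficient of variation had a median of 12.9% over the 9 genes and 7.97% over the genes of like level.

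Levels of different genes were set side by side only per length, in RPKM. Cxcr4 stood highest at 91.9 ± 11.9 RPKM (SD over 10 mice), followed by Cd44 at 85.5 ± 8.54 and Itgb1 at 79.0 ± 5.92 RPKM. Itga4 came next at 54.0 ± 6.89, then Itga6 at 47.8 ± 7.38, Selplg at 43.8 ± 5.64 and Itgal at 36.6 ± 6.91 RPKM. Itgb2 at 22.4 ± 3.11 and Itga5 at 14.8 ± 1.14 RPKM were the lowest. Neighbours in this order were compared within each mouse by an exact permutation test over all sign changes of the log2 differences, adjusted over the 8 pairs. Of the 8 pairs, 5 differed, namely Cd44 over Itgb1 (9 of 10 mice, adjusted p = 0.0125), Itgb1 over Itga4 (10 of 10, 0.00521), Selplg over Itgal (9 of 10, 0.0117), Itgal over Itgb2 (10 of 10, 0.00521) and Itgb2 over Itga5 (10 of 10, 0.00521). The step from Itgb1 to Itga4 was 0.56 on the log2 scale and that from Itgal to Itgb2 0.70. Differences between Cxcr4 and Cd44 (0.10 on the log2 scale, 7 of 10 mice, adjusted exact p = 0.134), Itga4 and Itga6 (0.18, 8 of 10, 0.107) and Itga6 and Selplg (0.12, 5 of 10, 0.248) were not beyond their spread. Exon length here is that of all exons of a gene together, so a gene used mostly as a short transcript reads low.

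**Figure D3:**
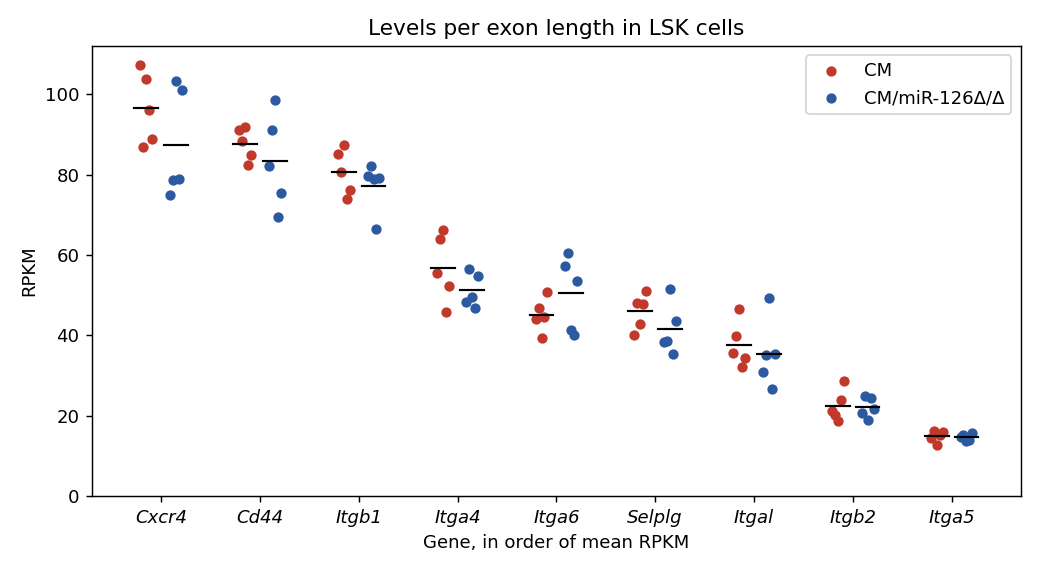
RPKM of the 9 genes (vertical axis, from 0) in order of their mean over 10 mice, with CM mice in red and CM/miR-126Δ/Δ mice in blue, 1 point per mouse and a black line at each genotype's mean. Cxcr4, Cd44 and Itgb1 have means of 79.0 to 91.9 RPKM, and Itga5 is lowest at 14.8 RPKM.

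The make-up of the alpha chains was followed as the share of each in the summed RPKM of Itga4, Itga5, Itga6 and Itgal, a quantity that does not depend on library scaling. Itga4 made up 36.6 ± 2.87% in CM mice and 33.8 ± 1.92% in CM/miR-126Δ/Δ mice (difference -2.81 percentage points, exact permutation p = 0.111, adjusted 0.365, n = 5 each). Itga6 went the other way, with 29.3 ± 3.70% and 33.2 ± 4.32% (difference 3.84 points, exact permutation p = 0.183, adjusted 0.365, n = 5 each). Neither difference passed the test, and the smallest p that 5 against 5 allows is 0.00794. Itga5 held 9.70% in both genotypes (SD 1.26 and 0.787). Itgal held 24.3 ± 2.29% and 23.3 ± 4.88% (difference -1.03 points, exact permutation p = 0.643, adjusted 0.857, n = 5 each). Mouse 3 decided the size of this difference, which was -3.20 points without deleted mouse 3 (adjusted exact permutation p = 0.0635) and -0.0429 points without CM mouse 3.

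Per mouse, Itga4 was the largest share in all 5 CM mice, at 37.1%, 38.3%, 40.2%, 33.3% and 34.1% in mice 1 to 5. Itga6 in the same mice held 29.4%, 28.0%, 23.9%, 32.4% and 33.1%. In CM/miR-126Δ/Δ mice 1 and 2 the order of these chains was turned, with Itga6 at 38.0% and 36.2% and Itga4 at 31.9% and 33.7%. The ratio of Itga4 to Itga6 was accordingly 1.27 ± 0.272 in CM mice and 1.03 ± 0.152 in the deleted mice, lower in the deleted mouse of 4 of 5 same-numbered pairs (exact permutation p = 0.103, adjusted over 4 ratios 0.413; paired exact p = 0.188, where 5 pairs cannot go below 0.0625).

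**Figure D4:**
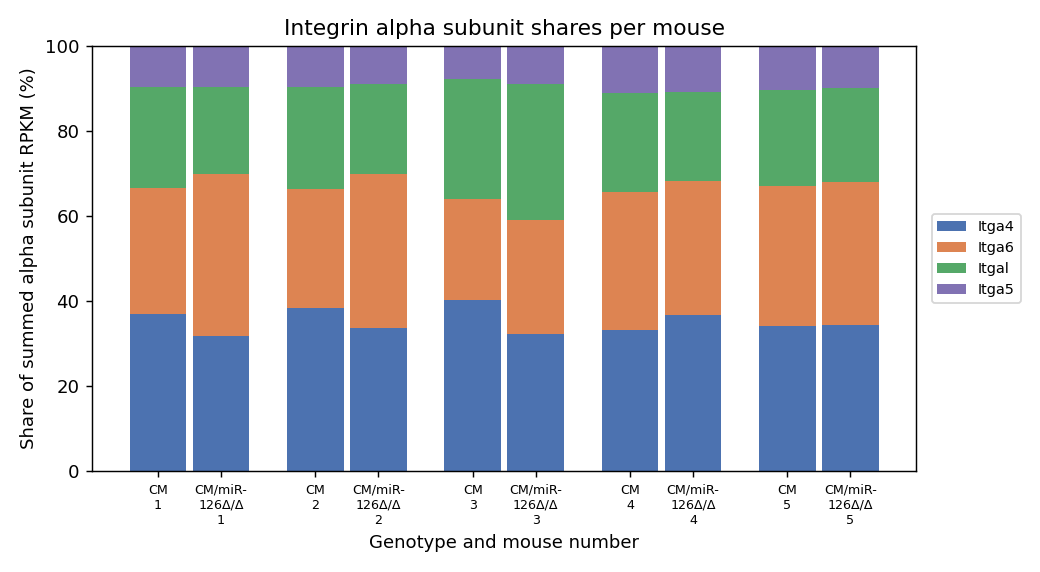
Share of each integrin alpha gene in the summed RPKM of Itga4, Itga6, Itgal and Itga5 (stacked bars, percent), with 1 bar per mouse and same-numbered mice side by side. Itgal has its largest share in mouse 3 of both genotypes, 28.3% and 32.0%, and Itga6 exceeds Itga4 in CM/miR-126Δ/Δ mice 1 and 2.

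Among the genes followed, the summed alpha chains varied little relative to Itgb1, and Itgal alone varied more relative to Itgb2. A sum evens out the variation of its genes and a single gene does not, so these spreads are not a like comparison. Other expressed alpha chain genes, among them Itgam at 16.8 RPKM and Itgav at 8.27 RPKM, were in neither ratio. The ratios are therefore not the whole supply of alpha chains. The summed RPKM of Itga4, Itga5 and Itga6 over that of Itgb1 was 1.45 ± 0.112 in CM mice and 1.51 ± 0.108 in the deleted mice (1.33 to 1.61 over 10 mice, exact permutation p = 0.437, n = 5 each). The ratio of Itgal to Itgb2 ran from 1.09 to 2.58, with means of 1.74 ± 0.513 and 1.64 ± 0.562 (exact permutation p = 0.762, n = 5 each) and its highest values in mouse 3 of both genotypes, 2.48 and 2.58. Itgb1 exceeded Itgb2 by 3.69 ± 0.798 times in CM mice and 3.53 ± 0.555 times in the deleted mice (exact permutation p = 0.778, n = 5 each). These are ratios of transcripts, and the proteins on the cell surface were not measured.

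Whether partner chains varied together across the 10 mice was then asked for the 4 pairs that form heterodimers, on log2 CPM with 100000 permutations each. Itga4 and Itgb1 were the pair with the highest correlation (Pearson r = 0.734, permutation p = 0.0124, adjusted over the 4 pairs 0.0497; Spearman rho = 0.855, p = 0.00303, adjusted 0.0121), and r was 0.725 without the 2 mice farthest from the median of Itga4. Taken as deviations from each genotype's mean the same pair had r = 0.701 (adjusted permutation p = 0.0708), and the differences between same-numbered mice had r = 0.416 (adjusted permutation p = 0.625). The adjusted p of the pooled r exceeded 0.05 when any 1 of 8 mice was left out, with r from 0.638 to 0.788 over all 10 such refits. Itgal and Itgb2 ran in opposite directions, with r = -0.632 (permutation p = 0.0509, adjusted 0.102) and rho = -0.685 (p = 0.0343, adjusted 0.0687), and r = -0.509 without the 2 mice farthest in Itgal. Its adjusted p fell under 0.05 without CM mouse 5 or CM/miR-126Δ/Δ mouse 1. Itga5 and Itga6 showed no detectable relation to Itgb1 (r = -0.160 and 0.158, adjusted permutation p = 0.675 for both). Depth, mouse number and cell composition differ between mice but are common to both genes within a mouse. Their part in these correlations was not tested.

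**Figure D5:**
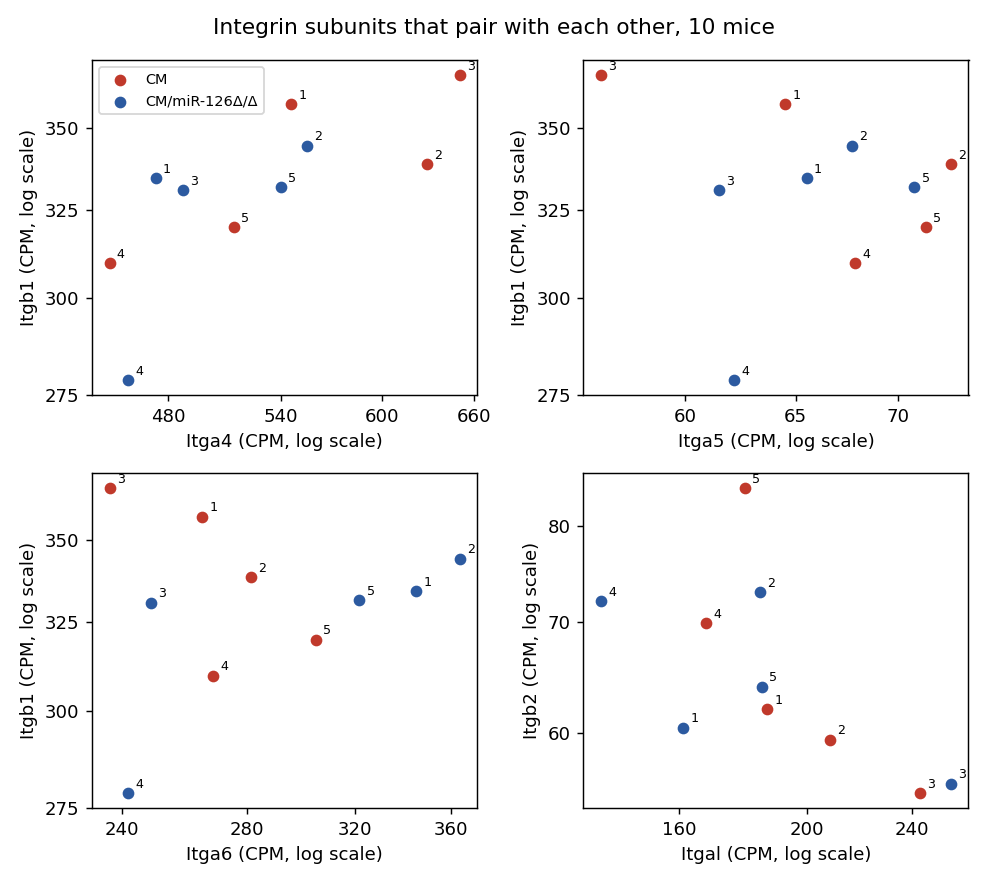
CPM of each alpha chain gene (horizontal log axes) against that of its beta chain gene (vertical log axes) in 10 mice, CM in red and CM/miR-126Δ/Δ in blue, with mouse numbers. Itga4 and Itgb1 rise together (r = 0.734), Itgal and Itgb2 run opposite (r = -0.632), and the panels of Itga5 and Itga6 have r of -0.160 and 0.158.

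Over all 36 pairs of the 9 genes, given as a description, the highest r was between Itgal and Cd44 (0.816), followed by Itgb1 and Cd44 (0.738), neither of which is a pair of partner chains. Among genes with a mean of at least 1 RPKM, the genes closest to the 9 across the 10 mice included, by Pearson r of log2 CPM, Elovl1 (0.971) and C1galt1c1 (0.943) for Cxcr4, Ino80 (0.896) for Itga4, and Il2rg (0.953) and Col4a2 (0.951) for Itga5. For Itga6 they were Ccser2 (0.970) and Rbms2 (0.942), for Itgb1 Fam126a (0.944) and Mfsd1 (0.942), and for Itgal Ldlrad4 (0.964) and Tm7sf3 (0.950). Itgb2 was closest to Ccdc97 (0.978) and Aktip (0.909), Cd44 to Dio2 (0.951) and Rftn1 (0.945), and Selplg to Laptm5 (0.947) and Lrpap1 (0.931). None of these genes was shared between any pair of the 9, and each r is among the highest of 11532 genes over only 10 mice, so that none of them is evidence of a relation.

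The fusion gene acts on core-binding factor, which binds DNA through its RUNX subunit at TGTGGT, which reads as ACCACA on the other strand. Promoters of 300 bases, 250 before to 50 after the start site, were given by RefSeq (GRCm38.p6) for 5 of the 9 genes: Cxcr4, Itga4, Itga5, Itgb1 and Cd44. One match was found among the 5, in Itga4, 60 bases before the start, and 16.8% of 32851 promoters of the same length held at least 1. It is shown with the motif in capitals, plus strand, chr2:79255354-79255383.
Itga4 promoter: gtgagccactgcACCACAcccaggacccca
Binding was not measured in these data, and a match of 6 letters is a description of the sequence alone.

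The 9 genes were then set against 123 other fitted genes of adhesion and homing in 6 roles, of which 93 had a mean of at least 1 RPKM. At an unadjusted p of at most 0.01, where 1.48% of all genes lay, 5 of the 123 were found, 1 higher and 4 lower in CM/miR-126Δ/Δ mice, and by the study's cutoffs, which 0.288% of all genes passed, 2 were called, both lower. In edgeR 0 passed an adjusted p of 0.05, where 0.0107% of all genes lay, and in DESeq2 1 of the 123, Podxl, passed it, as did 0.24% of all genes. An unadjusted edgeR p under 0.05 was found for 12 of the 93 genes with a mean of at least 1 RPKM, against 7.77% of all 11532 such genes. With the mouse number as a block, 13 genes of the list had an edgeR p of at most 0.01 (3 higher and 10 lower), against 3.05% of all genes, and 3 passed the study's cutoffs, against 0.613%. The median log2 fold change of the 93 was -0.06, with 65 of them lower, against -0.07 and 8 lower for the 9.

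Among 20 other integrin subunits, 9 with a mean of at least 1 RPKM, 2 fell at a p of at most 0.01, and 7 of the 9 had a lower mean, with a median log2 fold change of -0.26. Itgax, the alphaX chain of myeloid cells that also pairs with beta2, was at 6.06, 9.71, 8.43, 9.44 and 10.2 CPM in CM mice and at 4.67, 4.64, 6.75, 7.56 and 5.48 CPM in CM/miR-126Δ/Δ mice. Only CM mouse 1 lay inside the range of the deleted mice. The log2 fold change was -0.59 (SE 0.174, edgeR adjusted p = 0.623; exact permutation p = 0.0238). It lay close to the 1.5-fold cutoff, passing it at -0.593 with TMM factors and missing it at -0.584 with RLE factors and in DESeq2, and the call was also lost without CM mouse 2, 4 or 5 or deleted mouse 1, 2 or 5. An unadjusted edgeR p under 0.05 was found for 6 of the 9 subunits with a mean of at least 1 RPKM. Besides Itgax and Itgb3 these were Itgb7, Itga9, Itgam and Itgav, which are named here after their values were seen. Itgb7, the other beta chain that pairs with alpha4, was at 77.7, 67.3, 81.1, 68.7 and 81.2 CPM in CM mice and 57.3, 61.6, 73.4, 59.9 and 69.2 CPM in the deleted mice. The ranges overlapped, and in each same-numbered pair the deleted mouse was lower (log2 fold change -0.23, edgeR adjusted p = 0.726; exact permutation p = 0.0476; adjusted p = 0.204 with the block). Itga9 (-0.32, edgeR adjusted p = 0.746) and Itgam (-0.35, edgeR adjusted p = 0.746) had lower means in the deleted mice. Itgam was at 72.4, 74.3, 133, 70.4 and 90.0 CPM in CM mice and at 73.9, 74.1, 66.9, 68.4 and 62.0 CPM in the deleted mice. CM mouse 3 thus stood far above the rest and weighed heavily in the Itgam difference. Itgav, the alpha chain of vitronectin receptors, had a higher one, with 49.5 to 57.6 CPM in CM mice and 52.0 to 69.9 CPM in the deleted mice (0.20, edgeR adjusted p = 0.746). With the block Itgb7, Itga9 and Itgav reached an unadjusted p of at most 0.01. Itgb3, the beta3 chain of platelets and stem cells, was at 38.9 ± 7.24 and 30.3 ± 2.60 CPM (log2 fold change -0.36, edgeR adjusted p = 0.661; exact permutation p = 0.0397). Its partner Itga2b, the most abundant of these subunits at 46.1 RPKM, was at 173 ± 26.0 and 144 ± 27.8 CPM (-0.26, edgeR adjusted p = 0.764). Itga2b also reached an unadjusted p of at most 0.01 with the block (-0.27, edgeR adjusted p = 0.274). The summed level of 7 megakaryocyte markers was 188 to 255 CPM in CM mice and 138 to 208 CPM in the deleted mice (exact permutation p = 0.0873). Itga2b and Itgb3 are among the 7 and make up most of this sum, so it is no separate measure. Pf4 and Gp9 were the highest of the others. Pf4 was at 1.27 to 3.63 CPM in CM mice and 1.31 to 5.89 CPM in the deleted mice. Gp9 was at 3.89 to 5.95 and 3.33 to 6.56 CPM. Gp6 was under 3 counts in every library, and the part of megakaryocytic cells in the Itgb3 difference was not tested.

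Of 24 genes that activate integrins or link them to actin and of 22 partners and signalling genes of Cxcr4, 0 had a p of at most 0.01 in edgeR, and 1 of each had a p under 0.05. Tln1, talin, which switches integrins on, was the highest of the former at 144 RPKM (log2 fold change 0.05), and Parvg, a parvin of blood cells, had the smallest p (297 ± 13.2 and 265 ± 21.0 CPM, -0.17, edgeR adjusted p = 0.746). Gnai2, the G protein subunit that carries chemokine signals, was at 233 RPKM (-0.08). Rgs1, which dampens that signal, had the smallest p of its role and a wide spread, with 16.8 to 99.6 CPM in CM/miR-126Δ/Δ mice and 60.7 to 220.3 CPM in CM mice (-0.95, SE 0.442, edgeR adjusted p = 0.754; exact permutation p = 0.143). With the mouse number as a block Rgs1 passed the study's cutoffs (-1.11, edgeR adjusted p = 0.206), being lower in the deleted mouse of 4 of 5 pairs. Cd74, the receptor for macrophage migration inhibitory factor that works with Cxcr4, also reached an unadjusted p of at most 0.01 with the block (-0.55, edgeR adjusted p = 0.202).

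Among 21 selectins, mucins and enzymes of their glycosylation, Podxl, a sialomucin of the Cd34 family, fell at a p of at most 0.01. It was at 42.0, 66.2, 51.2, 26.7 and 39.5 CPM in CM mice and at 26.8, 25.1, 20.2, 29.3 and 31.5 CPM in CM/miR-126Δ/Δ mice. CM mouse 4 was within the range of the deleted mice and the other 4 were above it. The log2 fold change was -0.76 (SE 0.19, edgeR adjusted p = 0.514; exact permutation p = 0.0317; DESeq2 adjusted p = 0.0364), and without CM mouse 2 it was -0.58, short of the 1.5-fold cutoff. Cd34 itself, at 347 RPKM the most abundant of the 123 genes, was at 943 ± 52.7 and 874 ± 64.5 CPM (-0.11, edgeR adjusted p = 0.765).

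Of 20 other homing and retention receptors, Alcam rose and Ccr9 fell at a p of at most 0.01. Alcam, a cell adhesion molecule of stem cells and their niche, was at 40.6, 46.5, 37.1, 46.1 and 43.4 CPM in CM mice and at 60.3, 54.4, 49.8, 45.7 and 59.7 CPM in CM/miR-126Δ/Δ mice (log2 fold change 0.34, SE 0.0867, edgeR adjusted p = 0.514; exact permutation p = 0.0238). Deleted mouse 4 alone reached into the CM range. Ccr9, the receptor for Ccl25 of gut and thymus, was at 2.45 to 4.09 CPM in CM mice and 1.13 to 2.42 CPM in CM/miR-126Δ/Δ mice, with no overlap (-0.80, edgeR adjusted p = 0.612; exact permutation p = 0.00794, the smallest possible), at a mean of 0.538 RPKM. Cd47, which shields cells from phagocytosis, was the most abundant of this role at 194 RPKM (0.01). Of 19 counter-ligands, 16 fitted, 0 had a p of at most 0.01 in edgeR and 1 a p under 0.05, and Icam2, a ligand of LFA-1, was that one and also the most abundant (37.1 ± 2.69 and 33.1 ± 2.31 CPM, -0.16, edgeR adjusted p = 0.748).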

How the data were processed

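RNA-seq of LSK cells from 5 CM and 5 CM/miR-126Δ/Δ mice was used, 1 library per mouse. Groups and mouse numbers came from the sample titles. Per the study's methods and the labels, rRNA-depleted stranded libraries were read as single 51-base reads, trimmed (Trimmomatic 0.38, FASTP 0.19.4), aligned to mm10 (Tophat 2.0.8) and counted on RefSeq genes by HTSeq 0.6.1 (0.6.1p1 in the submitters' processing notes). The counting strand was not given in the sources used here. The values analysed are the raw counts per gene deposited by the authors, with each gene's mm10 position and exon length. A second deposited table, counts over a constant per library, was not used.

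All 18747 genes that had 1 or more counts in some library entered the model, run with edgeR 4.0.16 under R 4.3.3 (TMM, quasi-likelihood F-test in the edgeR 3 form, two-sided, genotype only, Benjamini-Hochberg over all genes fitted), as in the study's design, and checked on simulated data. SE is that of the log2 fold change, derived from the test as its absolute value over the square root of the F statistic. Intervals are 95%, from this SE and the fitted degrees of freedom. RPKM values are CPM with TMM factors over the deposited exon length in kilobases. Exact permutation and correlation tests used Python 3.11.15, numpy 2.4.6, pandas 2.3.3 and scipy 1.17.1. Untranslated regions came from GENCODE M1 transcripts (an mm9 annotation, sequences only).

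The sample titles give the mouse numbers but do not say that same-numbered mice were paired. Mouse numbers were taken as pairs from these same expression values: deviations from genotype means correlated at 0.195 to 0.475 within each of the 5 numbers (mean 0.347, against -0.0893 between different numbers). Results with the block and paired tests rest on this choice. Deviations within a genotype cancel out over its mice, so the mean between different numbers is tied to the mean within numbers and is no separate comparison. No 2 libraries agreed within sampling noise. P-values measure the spread between mice, and count limits cover counting error only, since reads carry no molecular identifiers.

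Members, gene lists and tests were chosen with earlier results of these data known, and the ratios of subunits and the 36 pairwise correlations were added after the data were seen. Named genes were the 9, the genes of the adhesion and homing list with p at or below 0.01, the most abundant gene and that of smallest p per role, and the 2 genes closest to each of the 9, of which 1 is not reported here. Alternatives were RLE factors, DESeq2 1.42.0, filterByExpr, no filter, the edgeR 4 quasi-likelihood, robust dispersions, the replicate block, Rn45s left out, unscaled RPKM and each mouse left out in turn.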

Additional observations from a re-analysis of the deposited data

Results flagged for a closer look

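In each of 26 sets of 5 mice (the CPM of the 9 genes and the shares of the 4 alpha chains, in each genotype), the gap between the most extreme mouse and its neighbour was compared with Dixon's 95% limit for 5 values. About 1.3 such sets arise by chance, and 3 were found. Itgb1 in CM/miR-126Δ/Δ mouse 4, at 279 CPM, lay below the other 4 deleted mice at 331 to 344 CPM. Itgal took 28.3% of the summed alpha chain RPKM in CM mouse 3, against 22.4% to 23.9% in the other CM mice, and 32.0% in CM/miR-126Δ/Δ mouse 3, against 20.4% to 22.2% in the others. The part of the shared number, of the monocyte markers and, in the deleted mouse, of the Rn45s share in these Itgal values was not tested.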

How the results depend on the processing

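For the 9 genes, 162 refits (RLE factors, DESeq2, other filters, the edgeR 4 form, robust dispersions, Rn45s left out, the replicate block and each mouse left out) gave log2 fold changes of -0.24 to 0.25, 0 adjusted p under 0.05 (lowest 0.473) and 3 unadjusted p under 0.05. The number with p at or below 0.01 was 0 to 1 with a mouse left out. Signs turned with single mice left out for Itga5 (-0.064 to 0.017), Itgb1 (-0.086 to 0.00022), Itgal (-0.23 to 0.011) and Itgb2 (-0.070 to 0.092), and not for Cxcr4 (-0.21 to -0.083), Itga4 (-0.20 to -0.075), Itga6 (0.093 to 0.25), Cd44 (-0.14 to -0.0010) or Selplg (-0.24 to -0.084). They turned for the Itga5 share (-0.509 to 0.328 points) and for r of Itgb1 with Itga5 (-0.590 to 0.264) and Itga6 (-0.233 to 0.459). The adjusted p of Itga4 and Itgb1 rose above 0.05 when any 1 of 8 mice was left out (r 0.638 to 0.788), as it did within genotypes (0.701) and with the replicate block (0.416), and that of Itgal and Itgb2 went under 0.05 without CM mouse 5 or CM/miR-126Δ/Δ mouse 1 (r -0.777 to -0.534 over all mice left out). Over all genes, calls by the study's cutoffs were 54, 115 with the replicate block and 33 to 128 with a mouse left out (128 without CM mouse 3, 33 without CM/miR-126Δ/Δ mouse 5), p at or below 0.01 gave 277, 572 and 154 to 496, and adjusted p under 0.05 gave 2, 20 and 1 to 7 (45 in DESeq2). In the adhesion and homing list these were 2, 3 and 1 to 3 (1 with RLE factors, 1 in DESeq2), 5, 13 and 2 to 8, and 0, 0 and 0 (1 in DESeq2). The block changed no call of the 9 genes. In the order of levels, 5 to 7 of 8 neighbours differed with a mouse left out. The causes were not tested. With 5 mice per genotype, the data did not exclude changes of a size inside the intervals given.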
